A study of Mus musculus with 9 samples.

Results

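The genes described here make, carry, bind, sense and break down retinoic acid. They are 9 of the 28908 mouse genes on the array, namely Cyp26a1, Aldh1a2, Dhrs3, Crabp1, Crabp2, Rbp4, Stra6, Rarb and Rarg, taken by gene symbol from the deposited signal table. The symbols matched 16 of the 45281 probes. A probe entered the tests when its deposited detection p-value was below 0.05 on at least 3 of the 9 arrays. That left 12 of the 16 probes, from 7 of the 9 genes. The probes that stand for Aldh1a2 and Stra6, and further probes of Cyp26a1 and Rarb, passed only through the arrays of treated cells, so a difference was built into their passing. The probe that stands for Rarb was detected on 1 other array and also needed the arrays of treated cells to pass.

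Retinoic acid is made from vitamin A. The carrier Rbp4 brings retinol to the cell surface, the receptor Stra6 lets it in, retinol dehydrogenases oxidize it to retinal, and retinal dehydrogenases such as Aldh1a2 form the acid, while Dhrs3 turns retinal back into retinol. Crabp1 and Crabp2 bind the acid in the cytoplasm, the nuclear receptors Rarb and Rarg act on genes with it as heterodimers with retinoid X receptors, and Cyp26a1 oxidizes it to inactive products. In the mouse embryo Cyp26a1 is known for clearing retinoic acid from the caudal end, and Aldh1a2 for making it in the trunk mesoderm.

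Mouse epiblast stem cells (EpiSCs) were profiled on 9 Illumina arrays with 1 sample each. EpiSCs are pluripotent cells that resemble the epiblast after implantation. The first group was EpiSCs given CHIRON at 3 µM for 48 h, the second EpiSCs sorted as dsRed2 positive, and the third EpiSCs sorted as dsRed2 negative, with 3 biological replicates each per the labels. All cells were male, of 129 background, carried the dsRed2 reporter and were kept in medium with activin A at 20 ng/ml and bFGF at 10 ng/ml. The labels give CHIRON by name alone, which usually stands for CHIR99021, a GSK3 inhibitor used to switch on Wnt/β-catenin signalling. Neither the element that drives dsRed2 nor the number of clones behind the line is given in the labels, and they do not settle whether treated cells were sorted. Treatment and sorting therefore cannot be told apart in the comparisons with treated cells. By its title, the study asked about Wnt signalling in EpiSCs that resemble the primitive streak.

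Median probe signals lay between 95.1 and 109 across the arrays, and each array detected 36.7% to 41.1% of its probes. All 8 epiblast markers were detected on every array, with a summed level of 7790 to 13400 on CHIRON arrays, 14600 to 17900 on dsRed2 positive arrays and 14100 to 15400 on dsRed2 negative arrays. Of the 8, 2 rose and 5 fell in each CHIRON comparison. Of all genes, 20.1% were called higher and 19.9% lower against dsRed2 negative cells, and 20.5% each way against dsRed2 positive cells. Nanog, a pluripotency factor, differed by -3.46 ± 0.20 from dsRed2 negative cells (limma adjusted p = 1.11e-06). Fgf5, a growth factor of the epiblast, differed by 1.83 ± 0.24 from the same cells (limma adjusted p = 0.000216). T and Sp5, which respond to Wnt signalling, rose in CHIRON cells by 5.66 ± 0.49 and 5.08 ± 0.45 against dsRed2 negative cells (log2 difference ± SE, limma adjusted p = 1.52e-05 and 1.71e-05). Axin2, a feedback inhibitor of the same pathway, rose by 1.97 ± 0.19 (limma adjusted p = 3e-05), and Lef1, a nuclear partner of β-catenin, was at least 1.79-fold higher (limma adjusted p = 0.000577). Among sorted arrays Lef1 was detected on dsRed2 positive replicate 2 alone. It needed the CHIRON arrays to pass the filter, so its rise was partly fixed by the filter. Here and below, a fold given as at least a value allows for the detection limit alone, not for sampling error or other processing. CHIRON replicates 1 and 2 were the closest arrays, with an SD of their log2 difference of 0.15 over 6602 genes, against 0.427 and 0.435 with CHIRON replicate 3.

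Across the pathway, 48 h of CHIRON went with much more mRNA for the breakdown enzyme Cyp26a1, a moderate rise of both retinoic acid binding proteins, and less mRNA for the receptor Rarg. Against dsRed2 negative cells, 4 of the 7 tested genes rose (Cyp26a1, Crabp1, Crabp2 and Stra6) and 1 fell (Rarg). Of all 13204 genes tested in that comparison 40.0% were called, 20.1% higher and 19.9% lower. Against dsRed2 positive cells 6 of the 7 rose, the additional genes being Aldh1a2 and Rarb, and Rarg again was the 1 that fell; 41.0% of all genes were called there, 20.5% higher and 20.5% lower. The median log2 difference of the 7 genes was 0.43 against dsRed2 negative cells and 0.55 against dsRed2 positive cells, beside -0.01 and -0.02 over all genes. Aldh1a2 and Stra6 passed the filter through CHIRON arrays alone, with no sorted array detecting them, as did 307 of all 13204 genes. Rarb, like other genes outside the 307, was detected on too few sorted arrays to pass without the CHIRON arrays. The counts and medians of the 7 genes were thus partly fixed by the filter. They also rest on genes chosen with earlier results of these data known. Between dsRed2 positive and dsRed2 negative cells 0 of the 7 was called, as was 0% of all genes. Both comparisons with CHIRON cells use the same 3 treated arrays, so their likeness is not independent.

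**Figure D1:**
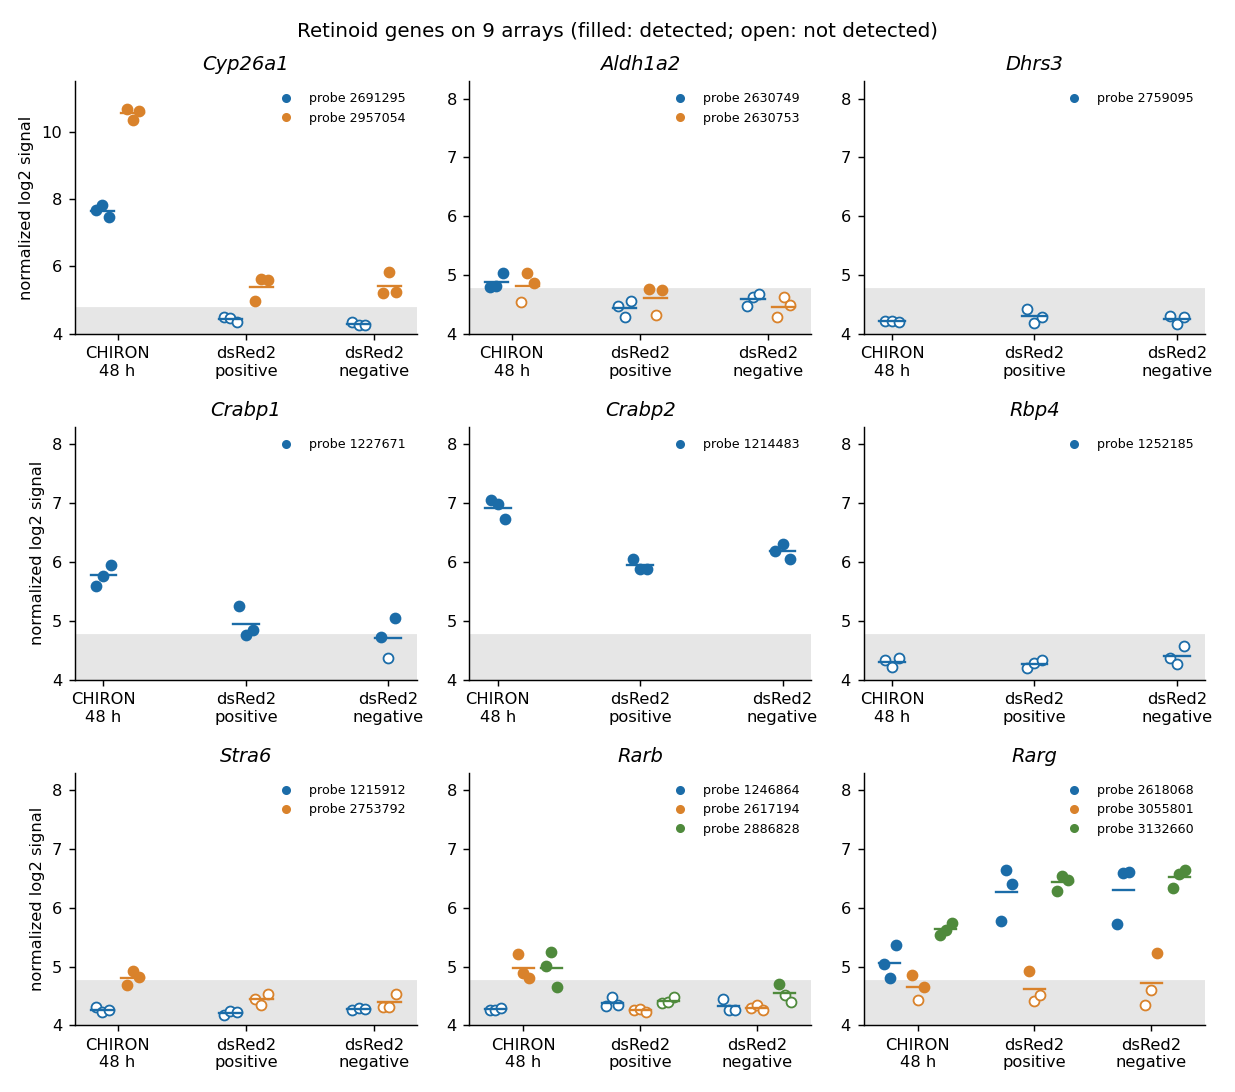
Normalized log2 signal of all 16 retinoid probes on the 9 arrays, with 1 panel per gene and 1 colour per probe. Points are arrays (filled where detected, open where not), lines are group means of 3 arrays, and grey reaches up to 4.76, the highest of the 9 per-array levels below which no probe was detected by its p-value. Cyp26a1 stood far above the sorted cells on all CHIRON arrays, and Dhrs3 and Rbp4 lay in the grey range on all 9 arrays.

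Cyp26a1, the enzyme that breaks retinoic acid down, had the largest difference among the 7 genes. The gene lies at chr19:37697738-37701536 (GRCm38.p6, as for all gene positions here). Its level on the log2 scale was 10.67, 10.35 and 10.62 on CHIRON arrays, against 4.98, 5.62 and 5.61 on dsRed2 positive arrays and 5.22, 5.82 and 5.25 on dsRed2 negative arrays. The treated arrays stood together and far from the 6 sorted arrays, which overlapped each other just above background. The deposited signal, not normalized, was 2090, 1160 and 2090 in CHIRON cells, against 106, 128 and 127 in dsRed2 positive cells and 107, 134 and 121 in dsRed2 negative cells. Cyp26a1 rose by 5.11 ± 0.21 (SE, n = 3 each) against dsRed2 negative cells, a 34.6-fold difference (limma adjusted p = 8.24e-08). Against dsRed2 positive cells it rose by 5.14 ± 0.21, or 35.3-fold (limma adjusted p = 8.57e-08). In these bulk samples a different share of expressing cells and a different amount of RNA per cell cannot be told apart.

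A second Cyp26a1 probe passed the filter through the CHIRON arrays alone, so its rise was partly fixed by the filter and its values are given as a description. It read 7.68, 7.81 and 7.48 on CHIRON arrays and was detected on none of the 6 sorted arrays, where its levels were 4.26 to 4.49. That probe was at least 7.67-fold higher than in dsRed2 negative cells and at least 7.64-fold higher than in dsRed2 positive cells. The files do not say which transcript each probe reads, so the levels of the 2 probes are not set against each other.

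Retinoic acid receptors are known to bind direct repeats of a short half-site, so the RefSeq promoters of the members (GRCm38.p6, 250 bases before to 50 after a transcript start) were searched on both strands for 8 such repeats. The table held 15 windows for 8 of the 9 genes and none for Crabp2. The repeat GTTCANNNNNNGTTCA lay in the windows of Cyp26a1 and Rarb, and the other 7 repeats, which combine the half-sites GTTCA and GGTCA at the same and at a shorter spacing, lay in 0 of the 15. Both windows are printed because Cyp26a1 and Rarb share this repeat yet differed widely in the size of their difference; capitals mark the match. The Cyp26a1 window is chr19:37697558-37697857 on the plus strand, with the match at chr19:37697776-37697791, in the opposite orientation, 32 bases before the start used. The Rarb window is chr14:16575427-16575726 on the minus strand, with the match at chr14:16575513-16575528, in the gene's orientation, 52 bases before the start used. Both matches lie inside the span annotated for their gene, which holds other starts.
Cyp26a1: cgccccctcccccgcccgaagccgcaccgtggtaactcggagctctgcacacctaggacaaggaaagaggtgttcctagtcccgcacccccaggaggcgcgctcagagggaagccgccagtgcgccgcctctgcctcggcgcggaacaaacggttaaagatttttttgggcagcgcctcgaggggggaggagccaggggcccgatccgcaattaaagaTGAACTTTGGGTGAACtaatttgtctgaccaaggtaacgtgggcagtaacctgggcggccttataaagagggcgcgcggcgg
Rarb: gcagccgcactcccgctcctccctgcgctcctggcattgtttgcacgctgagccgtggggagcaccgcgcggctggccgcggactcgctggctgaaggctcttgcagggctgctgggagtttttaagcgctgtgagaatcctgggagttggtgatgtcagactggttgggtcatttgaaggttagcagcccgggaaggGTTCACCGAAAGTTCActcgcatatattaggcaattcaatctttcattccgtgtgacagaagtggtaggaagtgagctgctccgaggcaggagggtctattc

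Read on its own strand the Cyp26a1 match is GTTCACCCAAAGTTCA, beside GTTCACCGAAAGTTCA in Rarb. The repeat occurred in 25 of 32851 promoter windows (0.076%), from 24 genes. Only 4 of those genes were tested. Against dsRed2 negative cells Cyp26a1 was called higher and Blvrb, biliverdin reductase B, was called lower at -1.37 (limma adjusted p = 0.000165). Cfap45, a protein of ciliary axonemes, differed by 0.16 (limma adjusted p = 0.624), and Rarb by 0.43 (limma adjusted p = 0.0543). Against dsRed2 positive cells Cyp26a1 and Rarb were called higher at 5.14 and 0.55 (limma adjusted p = 8.57e-08 and 0.0184). Blvrb was called lower there at -1.42 (limma adjusted p = 0.000122), and Cfap45 differed by 0.35 and was not called (0.258). Blvrb alone was lower in both comparisons. The part of the repeat in these differences was not tested. A match describes letters in the window and shows no binding.

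Both cytoplasmic binding proteins rose. Crabp2 (chr3:87948693-87953372), which is known to hand retinoic acid to its nuclear receptors, read 7.05, 6.98 and 6.74 on CHIRON arrays, against 6.06, 5.89 and 5.88 on dsRed2 positive arrays and 6.18, 6.30 and 6.06 on dsRed2 negative arrays. Every CHIRON array was above every sorted array. The deposited signals were 255, 184 and 233 in CHIRON cells, against 135, 138 and 136 in dsRed2 positive cells and 134, 155 and 151 in dsRed2 negative cells. Crabp2 rose by 0.75 ± 0.13 against dsRed2 negative cells (limma adjusted p = 0.00107) and by 0.98 ± 0.13 against dsRed2 positive cells (limma adjusted p = 0.00019).

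Crabp1 (chr9:54764748-54773110), the related protein that holds the acid in the cytoplasm, read 5.60, 5.77 and 5.95 on CHIRON arrays, against 5.25, 4.76 and 4.84 on dsRed2 positive arrays and 4.72, 4.37 and 5.05 on dsRed2 negative arrays. The CHIRON arrays again stood above all sorted arrays, by less than for Cyp26a1. The gene rose by 1.06 ± 0.19 against dsRed2 negative cells (limma adjusted p = 0.0015) and by 0.82 ± 0.19 against dsRed2 positive cells (limma adjusted p = 0.00613). One dsRed2 negative array did not detect it, so the size of its rise rests in part on values near background. Without background correction the difference was 0.31 against dsRed2 negative cells and 0.24 against dsRed2 positive cells, and it remained called.

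Of the receptors, Rarg fell and Rarb was dim. Rarg (chr15:102234938-102257522) read 5.54, 5.62 and 5.74 on CHIRON arrays, against 6.28, 6.54 and 6.48 on dsRed2 positive arrays and 6.34, 6.57 and 6.64 on dsRed2 negative arrays. All CHIRON arrays lay below all sorted arrays on this normalized scale. Rarg fell by 0.88 on the log2 scale (SE 0.13) against dsRed2 negative cells (limma adjusted p = 0.000416) and fell by 0.80 (SE 0.13) against dsRed2 positive cells (limma adjusted p = 0.000757).

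The fall of Rarg depended on the scaling of the arrays. The deposited signals overlapped, at 145, 122 and 158 in CHIRON cells, 144, 171 and 165 in dsRed2 positive cells and 140, 170 and 186 in dsRed2 negative cells, while the median signal per array averaged 105 in CHIRON cells, 99.3 in dsRed2 positive cells and 99.4 in dsRed2 negative cells. With each array centred on its median the difference was -0.64 against dsRed2 negative cells (limma adjusted p = 0.0345) and -0.57 against dsRed2 positive cells, where it was no longer called (limma adjusted p = 0.0566). A second Rarg probe was lower by -1.24 ± 0.28 and -1.21 ± 0.28 against dsRed2 negative and positive cells (limma adjusted p = 0.00437 and 0.00505 over all passing probes). Another, detected on 4 of 9 arrays, differed by -0.08 and 0.03 and was not called (limma adjusted p = 0.813 and 0.934).

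Rarb, a receptor whose own gene is a known target of retinoic acid, stayed near background. Its representative probe read 5.01, 5.25 and 4.65 on CHIRON arrays, all detected, against 4.38, 4.39 and 4.49 on dsRed2 positive arrays, none detected, and 4.71, 4.52 and 4.40 on dsRed2 negative arrays, 1 detected. CHIRON replicate 3 lay below dsRed2 negative replicate 1, so those groups overlapped. With 1 sorted array detecting it, this probe needed the CHIRON arrays to pass the filter, so a rise was partly fixed by the filter. The difference was 0.43 ± 0.16 against dsRed2 negative cells and was not called (limma adjusted p = 0.0543). Rarb was at least 1.19-fold higher than in dsRed2 positive cells (log2 difference 0.55 ± 0.16, limma adjusted p = 0.0184). That call was lost without dsRed2 positive replicate 1 (limma adjusted p = 0.0549), CHIRON replicate 1 (0.055) or CHIRON replicate 2 (0.0746), while without CHIRON replicate 3 or without dsRed2 negative replicate 1 the difference from dsRed2 negative cells was called (0.00835 and 0.0498).

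One of the other Rarb probes passed the filter through the CHIRON arrays alone, so it too is given as a description. It read 5.22, 4.89 and 4.81 on CHIRON arrays and 4.22 to 4.35 on the 6 sorted arrays, none of which detected it. It was at least 1.19-fold higher in CHIRON cells than in either sort. The remaining probe was detected on 0 of 9 arrays.

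**Figure D2:**
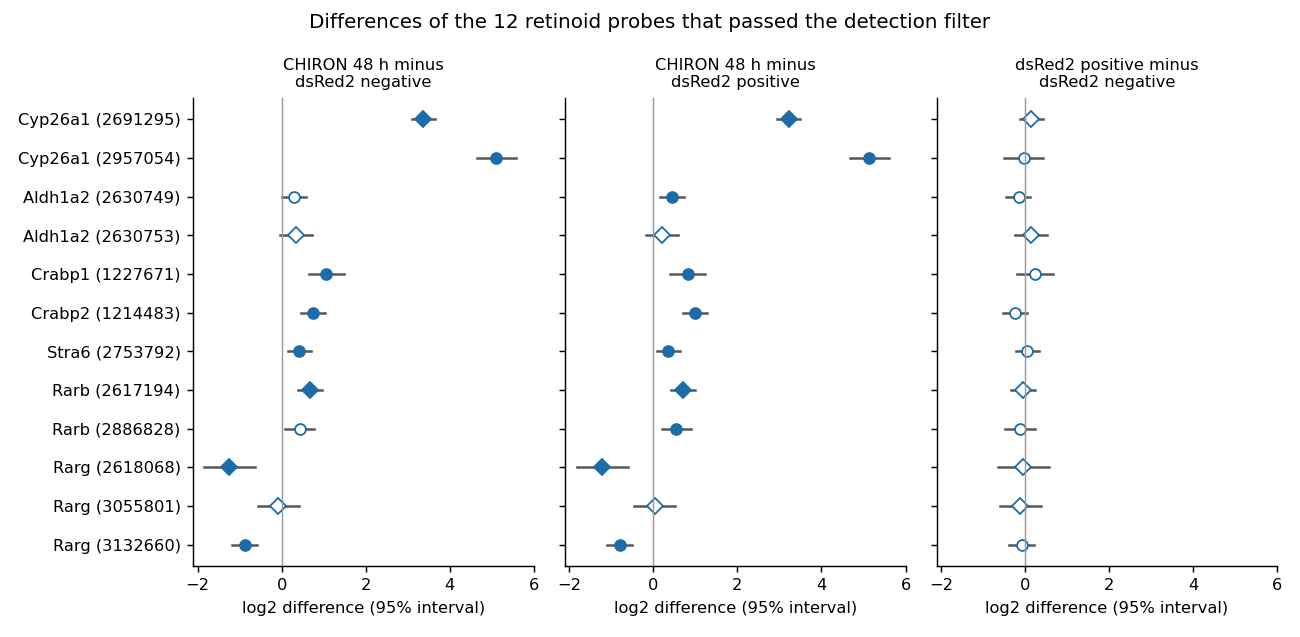
Log2 differences with 95% intervals for the 12 retinoid probes that passed the detection filter, in 3 comparisons of 3 arrays each. Circles are the probes that represent their gene, diamonds are its other probes, and filled symbols have a limma adjusted p below 0.05. Both Cyp26a1 probes stand far to the right in the CHIRON comparisons, and 2 of 3 Rarg probes lie well left of 0. No symbol is filled between dsRed2 positive and dsRed2 negative cells. The circles of Aldh1a2 and Stra6 and the diamonds of Cyp26a1 and Rarb passed the filter through CHIRON arrays alone. The circle of Rarb also needed the CHIRON arrays to pass. The filling of all these symbols in the CHIRON comparisons was partly fixed by the filter.

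Among the enzymes that make retinal and retinoic acid, Aldh1a2 (chr9:71215789-71296243) lay at the edge of detection. It read 4.79, 4.82 and 5.04 on CHIRON arrays, all detected, against 4.48, 4.29 and 4.55 on dsRed2 positive arrays and 4.48, 4.62 and 4.68 on dsRed2 negative arrays, none detected. The CHIRON arrays lay above the sorted arrays by a narrow margin. This probe passed the filter through CHIRON arrays alone, so a rise was partly fixed by the filter. The difference of 0.29 ± 0.13 from dsRed2 negative cells was not called (limma adjusted p = 0.095). Aldh1a2 was at least 1.12-fold higher than in dsRed2 positive cells (0.44 ± 0.13 on the log2 scale, limma adjusted p = 0.0172), and this call was lost without dsRed2 positive replicate 2 (limma adjusted p = 0.0623). Its second probe differed by 0.35 from dsRed2 negative and 0.20 from dsRed2 positive cells and was not called (limma adjusted p = 0.133 and 0.385). That probe was detected on 2 of 3 CHIRON arrays, 2 of 3 dsRed2 positive arrays and 0 of 3 dsRed2 negative arrays. The bound of 1.12-fold thus holds for the first probe alone. Dhrs3, the reductase that returns retinal to retinol, was detected on 0 of 9 arrays, with group means of 4.22 ± 0.01 in CHIRON cells, 4.30 ± 0.12 in dsRed2 positive cells and 4.26 ± 0.07 in dsRed2 negative cells (SD, n = 3 each).

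On the uptake side, Stra6 (chr9:58063793-58154004) read 4.68, 4.92 and 4.83 on CHIRON arrays, all detected, against 4.45, 4.34 and 4.54 on dsRed2 positive arrays and 4.31, 4.32 and 4.54 on dsRed2 negative arrays, none detected. It was at least 1.06-fold higher in CHIRON cells than in either sort, with log2 differences of 0.42 ± 0.12 against dsRed2 negative cells and 0.36 ± 0.12 against dsRed2 positive cells (limma adjusted p = 0.021 and 0.0375). This probe passed the filter through CHIRON arrays alone, so its rise was partly fixed by the filter. Both calls were fragile. The call against dsRed2 negative cells was lost without dsRed2 negative replicate 1 (limma adjusted p = 0.0666) or 2 (0.0619) or CHIRON replicate 2 (0.0785). The call against dsRed2 positive cells was lost without any 1 dsRed2 positive array (limma adjusted p = 0.0513 to 0.11) and without CHIRON replicate 2 (0.126) or 3 (0.0687). Another Stra6 probe was detected on 0 arrays. Rbp4, the retinol carrier of serum, was also detected on 0 of 9 arrays, with group means of 4.31 ± 0.08 in CHIRON cells, 4.27 ± 0.06 in dsRed2 positive cells and 4.39 ± 0.16 in dsRed2 negative cells (SD, n = 3 each). Not being detected bounds Rbp4 and Dhrs3 at array background and does not show that they were absent. Rbp4 lies at chr19:38116620-38125321, downstream of Cyp26a1 on the same chromosome.

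The sorted cells did not differ detectably in any retinoid gene. In dsRed2 positive minus dsRed2 negative cells, Cyp26a1 differed by -0.03 ± 0.21 (95% interval -0.50 to 0.44), with pairwise differences of -0.24, -0.21 and 0.36 for replicates 1 to 3. Crabp2 was lower in all 3 pairs, by -0.12, -0.41 and -0.18, but its mean difference of -0.24 ± 0.13 was not called (95% interval -0.52 to 0.04). Crabp1 differed by 0.24 ± 0.19 (95% interval -0.19 to 0.66), with 2 of 3 pairs higher. Rarg, Rarb, Aldh1a2 and Stra6 differed by -0.08, -0.12, -0.15 and 0.05. All 7 had a limma adjusted p of 1. Of all 13204 genes 370 (2.80%) had an unadjusted p below 0.05, none of them among the 7. Arrays of the 2 sorts with the same replicate number deviated together, and in a fit with that pairing over the 6 sorted arrays the lowest adjusted p among the 7 genes was that of Crabp2 (limma adjusted p = 0.556). With 3 arrays per group, differences as large as 0.66 for Crabp1 and -0.50 for Cyp26a1 lay within the intervals.

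The rest of the pathway was read from 5 lists of other retinoid genes. In uptake and storage, Rbp7, a cellular retinol-binding protein, was at least 1.2-fold lower in CHIRON cells than in dsRed2 negative cells (-0.59 ± 0.21, limma adjusted p = 0.0413), a call lost under 15 of 22 alternatives, among them leaving out any 1 CHIRON array. Against dsRed2 positive cells Rbp7 differed by -0.42 and was not called (limma adjusted p = 0.126). Serum transthyretin (Ttr), which carries Rbp4, and Lrat, which esterifies retinol for storage, were detected on 0 arrays.

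Of 16 genes that convert retinol and retinal, 8 were tested. Against dsRed2 negative cells 1 rose and 1 fell, beside 20.1% and 19.9% of all genes. Rdh12, a retinal reductase known from photoreceptors, read 5.01, 4.91 and 4.88 on CHIRON arrays, against 6.16, 6.10 and 6.42 on dsRed2 positive arrays and 6.22, 6.16 and 6.36 on dsRed2 negative arrays, a fall of every treated array below every sorted one. Its log2 difference was -1.32 ± 0.12 against dsRed2 negative cells and -1.29 ± 0.12 against dsRed2 positive cells (limma adjusted p = 2.85e-05 and 3.13e-05). Rdh5, a retinol dehydrogenase of the visual cycle, was detected on no sorted array and was at least 1.39-fold higher in CHIRON cells than in either sort (limma adjusted p = 0.00142 and 0.00141). It passed the filter through CHIRON arrays alone, so its rise and its place in these counts were partly fixed by the filter. Against dsRed2 positive cells 2 rose and 3 fell, beside 20.5% of all genes each way. There Adh5, a class III alcohol dehydrogenase, rose by 0.47 ± 0.14 (limma adjusted p = 0.0172), and the retinol dehydrogenase family members Rdh14 and Rdh11 differed by -0.44 ± 0.15 and -0.49 ± 0.18 (limma adjusted p = 0.0322 and 0.0496). Rdh11 is named after its values were seen. The Adh5 call was lost without dsRed2 positive replicate 1 or 2 or CHIRON replicate 1 (limma adjusted p = 0.0518, 0.0504 and 0.07), the Rdh14 call without dsRed2 positive replicate 1 or 3 or any 1 CHIRON array (0.0585 to 0.124). With median centring Rdh14 and Rdh11 differed by -0.21 and -0.36 and were not called (limma adjusted p = 0.458 and 0.255), and a second Rdh14 probe differed by -0.25 and was not called (0.225 over all passing probes). The Rdh11 call was lost under 10 of 23 alternatives, among them leaving out any 1 CHIRON array. A second Rdh11 probe differed by -0.47 from dsRed2 positive cells and was called (limma adjusted p = 0.0272 over all passing probes). Rdh10, the main retinol dehydrogenase of the mouse embryo, differed by 0.12 from dsRed2 negative and -0.04 from dsRed2 positive cells and was not called (limma adjusted p = 0.655 and 0.902). Aldh1a1 and Aldh1a3, which like Aldh1a2 form retinoic acid, were detected on 0 arrays.

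None of the other breakdown and binding genes could be tested: Cyp26b1 was detected on 1 array and Fabp5 on at most 2, and no probe of Cyp26c1 was found. Among other receptors and co-regulators, 7 of 10 listed genes were tested, and 1 rose and 3 fell in both CHIRON comparisons. Of all genes, 20.1% were called higher and 19.9% lower against dsRed2 negative cells, and 20.5% each way against dsRed2 positive cells. Rxra, the retinoid X receptor that pairs with the retinoic acid receptors, read 4.87, 5.03 and 4.68 on CHIRON arrays, against 6.17, 6.22 and 6.37 on dsRed2 positive arrays and 6.41, 6.14 and 6.49 on dsRed2 negative arrays. It fell in every treated array, with log2 differences of -1.48 ± 0.14 and -1.39 ± 0.14 against dsRed2 negative and positive cells (limma adjusted p = 2.69e-05 and 3.84e-05), and was still called with median centring. Rxrg rose by 0.92 ± 0.19 and 0.83 ± 0.19 against dsRed2 negative and positive cells (limma adjusted p = 0.00321 and 0.00573). Detected on 1 array of each sort, Rxrg needed the CHIRON arrays to pass the filter. Its rise and its place in these counts were thus partly fixed by the filter. Rxrb and the co-repressor Ncor1 differed by -0.47 ± 0.12 and -0.59 ± 0.13 against dsRed2 negative cells (limma adjusted p = 0.0118 and 0.00546) and by -0.46 ± 0.12 and -0.58 ± 0.13 against dsRed2 positive cells (0.013 and 0.00539). With median centring neither was called in either comparison (limma adjusted p = 0.16 to 0.365). A second Rxrb probe differed by -0.63 and -0.66 from dsRed2 negative and positive cells (limma adjusted p = 0.00612 and 0.00452 over all passing probes). Rara, the remaining retinoic acid receptor, differed by 0.04 and 0.06 against dsRed2 negative and positive cells and was not called (limma adjusted p = 0.861 and 0.808).

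**Figure D3:**
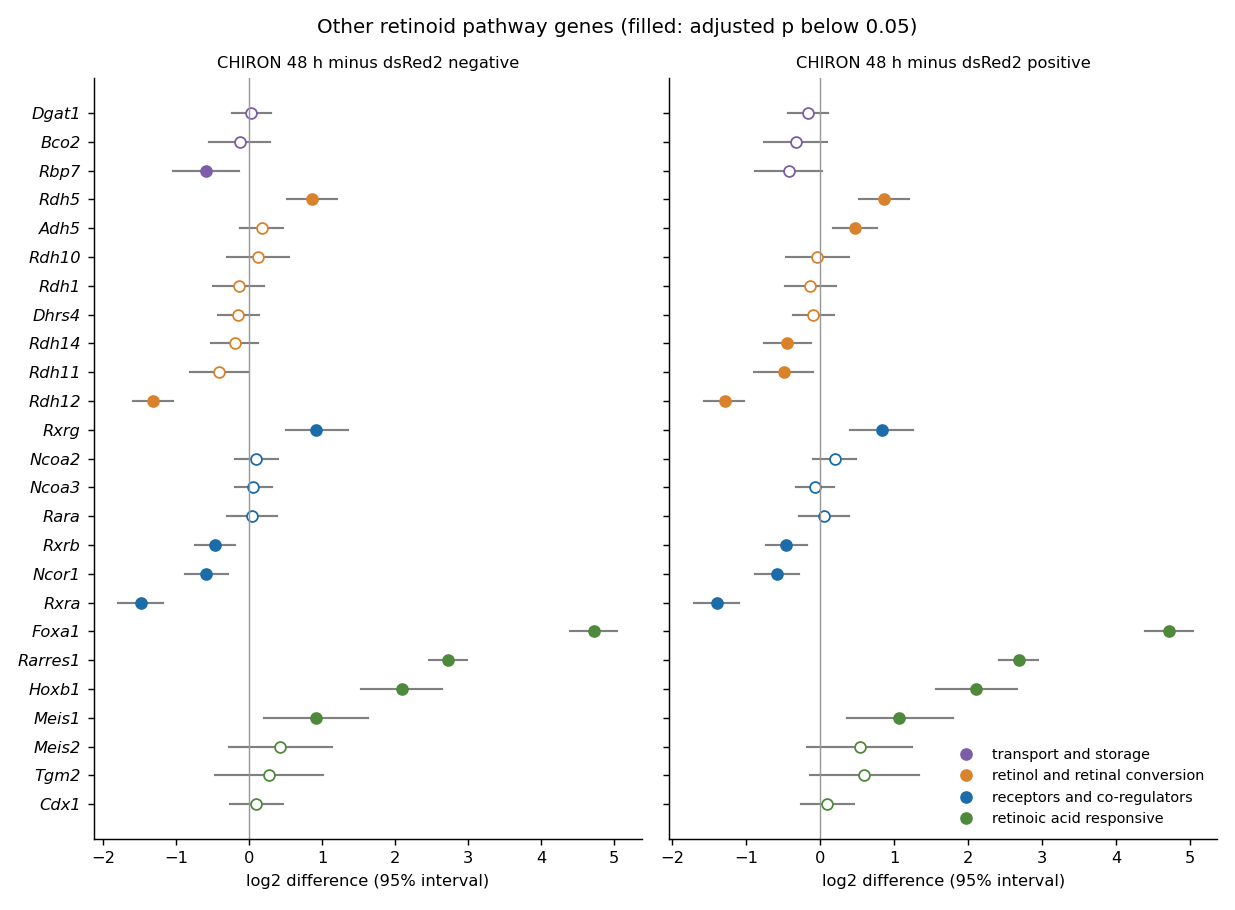
Log2 differences with 95% intervals for 25 tested genes of 4 other retinoid lists, coloured by list and ordered within each list by the difference from dsRed2 negative cells. Filled points have a limma adjusted p below 0.05. Foxa1, Rarres1 and Hoxb1, which passed the filter through CHIRON arrays alone, lie furthest right in both panels, and Rxra and Rdh12 furthest left.

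Of 13 genes known to respond to retinoic acid, 9 were tested. Against dsRed2 negative cells 5 rose and 0 fell, beside 20.1% and 19.9% of all genes, with a median log2 difference of 0.92. Against dsRed2 positive cells 6 rose and 0 fell, beside 20.5% of all genes each way, with a median of 1.07. Of the 9, 4 passed the filter through CHIRON arrays alone, Rarres1, Hoxb1 and Foxa1 among them. These counts and the rises of those genes were therefore partly fixed by the filter. Rarres1, named for its induction by retinoids, read 7.13, 7.10 and 7.06 on CHIRON arrays, against 4.36, 4.59 and 4.30 on dsRed2 positive arrays and 4.36, 4.30 and 4.46 on dsRed2 negative arrays. It was undetected in both sorts and at least 5.21-fold higher than in dsRed2 negative cells (limma adjusted p = 1.03e-07). Hoxb1, the anterior Hox gene with known retinoic acid response elements, read 6.84, 6.60 and 5.64 on CHIRON arrays and was detected on no sorted array. It was at least 3.12-fold higher than in dsRed2 negative cells (limma adjusted p = 0.000117), with CHIRON replicate 3 the lowest of the treated arrays. Foxa1, a transcription factor of endoderm, was at least 19.5-fold higher than in dsRed2 negative cells (limma adjusted p = 1.43e-08). It also stands on the list of definitive endoderm markers. Meis1, a homeobox cofactor of Hox proteins, is named after its values were seen. Among sorted arrays it was detected on dsRed2 negative replicate 2 alone. Meis1 thus needed the CHIRON arrays to pass the filter, and its rise and its place in these counts were partly fixed by the filter. It read 5.35, 5.08 and 6.52 on CHIRON arrays, against 4.42, 4.68 and 4.63 on dsRed2 positive arrays and 4.45, 5.16 and 4.57 on dsRed2 negative arrays, so that CHIRON replicate 2 lay below dsRed2 negative replicate 2. The difference of 0.92 ± 0.32 from dsRed2 negative cells was called (limma adjusted p = 0.0422), but without CHIRON replicate 3 it was 0.49 and not called (0.0931), and 13 of 23 alternatives lost the call. Against dsRed2 positive cells Meis1 differed by 1.07 ± 0.32 (limma adjusted p = 0.0215), and by 0.64 without CHIRON replicate 3 (0.035). Cdx1 differed by 0.10 in both comparisons and was not called (limma adjusted p = 0.67 in each), and Stra8 was detected on 0 arrays.

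Markers of several other cell types, like those of the epiblast, moved with the same contrast, while no neural marker was called. Calls here are against dsRed2 negative cells, where 20.1% of all genes were called higher and 19.9% lower. In the visceral endoderm, mesoderm and trophoblast lists 1 tested marker each passed the filter through CHIRON arrays alone. Foxc1 of the mesoderm list and Plac1 of the trophoblast list, detected on few sorted arrays, also needed the CHIRON arrays to pass. All 7 definitive endoderm markers rose in CHIRON cells against dsRed2 negative cells. Their summed level was 2180 to 3080 on CHIRON arrays, 143 to 161 on dsRed2 positive arrays and 142 to 150 on dsRed2 negative arrays. Of the 7, 5 passed the filter through CHIRON arrays alone, and Cer1 and Cxcr4 also needed the CHIRON arrays to pass. The rise of all 7 was thus partly fixed by the filter. For visceral endoderm, 3 of 4 tested markers rose. The summed level of its 9 markers was 500 to 555 on CHIRON arrays, 186 to 205 on dsRed2 positive arrays and 209 to 223 on dsRed2 negative arrays. Of this list, Afp, Apob, Cubn and Ttr were detected on no CHIRON array. For parietal endoderm 3 of 3 tested markers rose, with sums of 1610 to 2080 on CHIRON arrays, 242 to 309 on dsRed2 positive arrays and 315 to 476 on dsRed2 negative arrays, and Lamb1 and Thbd were undetected throughout. For mesoderm 3 of 3 rose, with sums of 261 to 512 on CHIRON arrays, 154 to 173 on dsRed2 positive arrays and 155 to 158 on dsRed2 negative arrays, and Foxc2 and Kdr were undetected throughout. Tbx6 read 7.30 and 7.28 on CHIRON replicates 1 and 2 but 5.15 on CHIRON replicate 3, against up to 5.42 on sorted arrays. Its rise thus rested on CHIRON replicates 1 and 2. In their sums the endoderm and mesoderm lists ran in the direction of Cyp26a1. Trophoblast markers, of which 4 of 5 tested rose, summed to 823 to 1280 on CHIRON arrays, 238 to 295 on dsRed2 positive arrays and 304 to 405 on dsRed2 negative arrays, and Elf5 was undetected throughout. Fibroblast and feeder markers summed to 1650 to 8700 on CHIRON arrays, 925 to 1020 on dsRed2 positive arrays and 1180 to 2140 on dsRed2 negative arrays. The highest sum was that of CHIRON replicate 3, where Acta2 read 12.86, against 10.22 and 10.24 on CHIRON replicates 1 and 2. Of 4 tested, 1 rose and 1 fell, and Col1a2, Col3a1, Lum and Postn were undetected throughout. Neural markers summed to 273 to 390 on CHIRON arrays, 303 to 436 on dsRed2 positive arrays and 242 to 418 on dsRed2 negative arrays, with 0 of 2 tested called and Pax6 and Sox1 undetected throughout. The part of these cell types in the retinoid differences was not tested.

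The genes whose levels followed each retinoid gene most closely were found by Pearson correlation over the 9 arrays, which fall into treated and sorted arrays, so a high r reflects that contrast first. Cyp26a1 was followed most closely by Capn6, Hsd11b2 and Prss12 (r = 0.998 for each), and 704 genes had an r over 0.95 with it. Crabp2 was followed by Ptrh2, Sh3tc1 and Cdk4 (r = 0.986, 0.984 and 0.979; 96 genes over 0.95), and Crabp1 by Pfkfb4, Zfp213 and Dtnbp1 (r = 0.981, 0.981 and 0.979; 30 genes). Rarg was followed by Hmgxb4, Arhgef12 and Fpgs (r = 0.996, 0.995 and 0.985; 138 genes). The dim genes had fewer close followers: 20 genes for Aldh1a2, led by Ak1, E430005I09Rik and Tango2, 10 for Stra6, led by Lrrc40, LOC100046855 and Arhgef26, and 5 for Rarb, led by Scara3, Dpagt1 and Zfp763. More genes thus had an r over 0.95 with Cyp26a1 than with any of the other 6 genes. Such a count also depends on the size of a gene's difference beside its scatter, so it does not measure how common a pattern was.

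**Figure D4:**
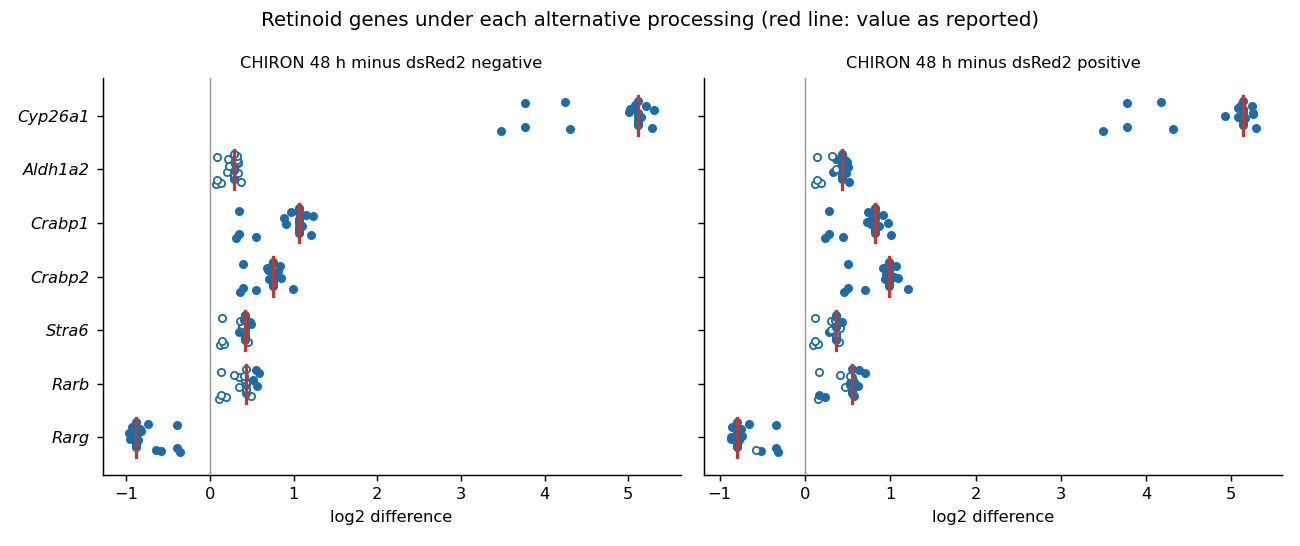
Log2 differences of the 7 tested retinoid genes in the 2 CHIRON comparisons, as reported (red line) and under each alternative processing (points; filled where the limma adjusted p was below 0.05). Cyp26a1, Crabp1, Crabp2 and, in the left panel, Rarg kept filled points throughout. Stra6 and Rarb had filled and open points in each panel. Aldh1a2 had both in the right panel and only open points in the left. Rarg had 1 open point in the right panel.

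Of the 7 genes, Cyp26a1, Crabp1 and Crabp2 were called in both CHIRON comparisons under all 23 alternatives, and Rarg under all 23 against dsRed2 negative cells and 22 of 23 against dsRed2 positive cells. The call of Stra6 was lost under 9 of 22 alternatives against dsRed2 negative cells and 13 of 22 against dsRed2 positive cells, and those of Aldh1a2 and Rarb against dsRed2 positive cells under 6 of 22 each. For the other genes the size varied more than the call. Against dsRed2 negative cells the differences ranged from 3.48 to 5.31 for Cyp26a1, 0.36 to 0.99 for Crabp2, 0.31 to 1.23 for Crabp1 and -0.97 to -0.36 for Rarg, with the smallest sizes when no background was subtracted. In the authors' deposited log2 values Crabp1, Crabp2 and Rarg differed by 0.35, 0.39 and -0.39 from dsRed2 negative cells, and all 3 were called (limma adjusted p = 0.00404, 0.00142 and 0.0014).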

How the data were processed

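RNA of 9 samples (3 groups of 3) was hybridized to Illumina arrays. The intensity of each probe was used as deposited, an average over its beads without normalization, per the file headers, and the detection p-value of each probe was taken as deposited. The authors also deposited log2 values, made with lumi per the submitters' processing notes (version and settings not given in the sources used here). These log2 values served as an alternative.

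Signals were background-corrected by normexp with the detection p-values, offset by 16, quantile-normalized and log2-transformed (neqc, limma 3.58.1 in R 4.3.3). Of 30869 symbols, 16219 were current, 5710 were updated and 8940 were kept. Among the passing probes of a gene the one brightest on average stood for it, which gave 13204 genes; tests per probe covered all 19074 passing probes. Group means were fitted to the 9 arrays without other terms (limma's lmFit and eBayes, two-sided), with Benjamini-Hochberg adjustment at 0.05. Where none of a group's arrays detected a gene, its fold is a lower bound, in which each of those arrays enters at the probe's own level or, if higher, at the lowest level it detected for any probe. This bound allows for the detection limit alone. It holds no sampling error and was taken under the main normalization. Over the alternatives the log2 difference from dsRed2 negative cells went down to 2.45 for Foxa1 and 0.72 for Hoxb1. The number of arrays limits the precision. The procedure was tested on simulated data. Promoters and coordinates are from RefSeq (GRCm38.p6).

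Replicate numbers paired the sorts, by the data: deviations from group means correlated at r = 0.54, 0.58 and 0.35. For CHIRON arrays and sorted arrays of the same number r was -0.14 to 0.10, so these were not paired.

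The members and gene lists were chosen with earlier results of these data known. Named genes are the members, up to 4 called genes per other retinoid list and comparison by smallest p, Axin2, Sp5, Lef1 and T, and 3 correlates per tested member. A few genes this rule would name are not reported here; the counts include them.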

Additional observations from a re-analysis of the deposited data

How the results depend on the processing

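No alternative turned the direction of a called difference of the retinoid genes in the CHIRON comparisons. Centring arrays on their median, in place of quantile normalization, shifted the median of all genes by 0.15 against dsRed2 negative and 0.14 against dsRed2 positive cells. It left 1284 genes lower against dsRed2 negative cells (2629 as reported), 68.7% of calls being higher in place of 50.2%. Against dsRed2 positive cells it left 1420 lower (2709 as reported), 65.7% being higher, and 0 retinoid genes lower in place of 1. Retinoid genes called higher than in dsRed2 positive cells, 6 as reported, were 3 without background correction, 3 with the detection threshold set at 0.01 (which 3 of the genes did not pass), and 3 in the replicate block fit of deposited values, an alternative chosen after seeing the data. Leaving out each array in turn gave 4 to 6, and 3 to 5 against dsRed2 negative cells. Averaging CHIRON replicates 1 and 2 gave 4 in each comparison.

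With the replicate number as a block over the 6 sorted arrays, 0 genes were higher and 3 lower in dsRed2 positive cells, and 3 higher and 40 lower on the deposited values, with no retinoid gene among them. The block over the 6 arrays compared ended the calls of Stra6 against dsRed2 negative and dsRed2 positive cells (0.42 and 0.36, limma adjusted p = 0.0672 and 0.0874) and, against dsRed2 negative cells, those of Rbp7 and Meis1 (-0.59 and 0.92, limma adjusted p = 0.0518 and 0.0811). It changed no other call of the 7 tested retinoid genes on the normalized signals. Signals near background limit Aldh1a2, Stra6 and Rarb; why their calls changed was not tested.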
